A study of Mus musculus with 6 samples.

Results

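Zscan10, Exosc2, Gss and Slc2a3 are 4 of the 17912 genes in a table of scaled read counts from poly(A) RNA of mouse embryonic stem cells (ESCs). They were taken by gene symbol, and each symbol matched 1 row. Of the 6 libraries, 3 are labelled as clones with the genotype EXOSC2_KD, carrying a short hairpin RNA against Exosc2 (shEXOSC2, replicates 5, 6 and 7), and 3 as WT controls (replicates 1, 2 and 3). The series title sets the work in the context of EXOSC2 in aging and cancer. The hairpin sequence, the parental line, any control hairpin and the age of the cultures are not given in the labels used here. The titles number the knockdown libraries as clones, 1 library a clone. Whether the controls came from separate cultures is not given, so the control part of the spread behind the p-values may be technical.

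Zscan10 encodes a zinc finger transcription factor with a SCAN domain that is known from pluripotent cells, where it works beside OCT4 and SOX2. Exosc2 encodes an RNA-binding cap subunit of the exosome, which trims and degrades RNA from the 3′ end. Gss encodes glutathione synthetase, which adds glycine to gamma-glutamylcysteine to finish glutathione, the main small antioxidant of the cell. Slc2a3 encodes the glucose transporter GLUT3, known for its high affinity and for its expression in neurons, in the early embryo and in pluripotent cells.

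All 4 genes changed, in different directions and by very different amounts. In the shEXOSC2 clones Slc2a3 and Zscan10 were nearly lost, Exosc2 was at 45.3% of its control level, and Gss was over 10 times higher. All 4 passed the test at an adjusted p under 0.05 (limma, adjusted over 15179 tested genes), a threshold that 73.5% of tested genes passed. For each of the 4 the clone and control values did not overlap, as for 77.3% of tested genes. A call by itself therefore sets none of the 4 apart; their sizes do so to different degrees. Recovered reads numbered 24268430 to 26494985 in the clones and 21107761 to 24633836 in the controls.

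**Figure D1:**
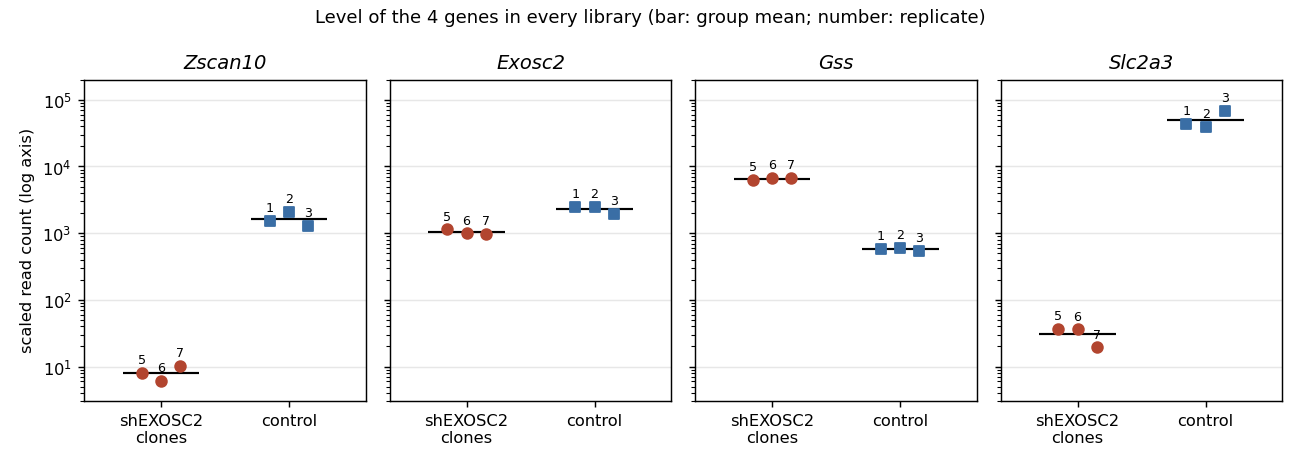
Scaled read counts (log axis) of the 4 genes in each of the 3 shEXOSC2 clones (circles) and 3 controls (squares), with group means as bars and replicate numbers beside the points. The groups are apart for each gene, with the clones lower for Zscan10, Exosc2 and Slc2a3 and higher for Gss.

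Exosc2 (ENSMUSG00000039356.15, chromosome 2, positions 31670715 to 31681349, plus strand, GRCm38) is the gene the hairpin is labelled against. It measured 1138, 997 and 981 scaled counts in clones 5, 6 and 7, against 2457, 2473 and 1954 in controls 1, 2 and 3. The highest clone stood below the lowest control, which was 1.72 times as high. The log2 fold change, clones over controls on the log2(scaled count + 1) scale, was -1.14 (95% interval -1.43 to -0.84, limma adjusted p = 5.1e-05), so the mean in the clones was 45.3% of the control mean. Of all tested genes 23.7% lay below Exosc2 by this measure, and 25.7% were called at least 2-fold lower. In the annotation 358 of its 2888 exon bases are shared with Gm13427, an antisense gene, and the labels do not say whether reads were counted by strand, so reads of the pair cannot be told apart.

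The other subunits of the exosome were mostly lower too. Of 13 tested genes of the list (core subunits, catalytic subunits and associated factors, Exosc2 included), 8 were lower, 2 higher and 3 did not pass, where 38.3% of all tested genes were lower and 35.2% higher. Their median log2 fold change was -0.60, beside -0.07 over all tested genes. Dis3, a catalytic subunit, fell most, at 1317 ± 112 scaled counts in the clones and 6114 ± 686 in the controls (SD, n = 3 each). Mphosph6, an associated factor, and Exosc8, a ring subunit, had log2 fold changes of -1.55 (SE 0.16) and -1.02 (SE 0.11). C1d, a nuclear cofactor, and Exosc4, a ring subunit, were the members that rose, and the Exosc4 call was lost in 8 of 17 alternative analyses, among them those without clone 6, clone 7, control 1 or control 3 (log2 fold changes 0.44 to 1.06 over all 17).

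Within a library, Exosc2 also stood lower in the clones beside the mean of its partner subunits, though not clearly beside each of them. The log2 ratio of its level per kb of exon to the mean of the 8 other genes with an Exosc symbol was 0.65, 0.42 and 0.40 in clones 5, 6 and 7, against 1.23, 1.08 and 1.29 in controls 1, 2 and 3. Exosc2 was thus above the mean of its partners in every library, by less in the clones. The difference was -0.71 on the log2 scale, with no overlap between groups (exact two-sided permutation test p = 0.1, the smallest that 3 against 3 libraries allow). By log2 fold change, Exosc7, Exosc8 and Exosc9 (-1.03, -1.02 and -0.92) fell almost as far as Exosc2 (-1.14). The other partners fell less or rose: Exosc3, Exosc10 and Exosc5 had -0.60, -0.46 and -0.38, and Exosc1 and Exosc4 had 0.27 and 0.74. Of these, Exosc5 and Exosc1 did not pass. Exosc6 is not analysed here.

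Gss (ENSMUSG00000027610.17, chromosome 2, positions 155563181 to 155592810, minus strand) was the member that rose. It had 6264, 6730 and 6818 scaled counts in clones 5, 6 and 7, against 583, 598 and 538 in controls 1, 2 and 3. The lowest clone was 10.5 times the highest control, and replicates varied by 4.51% in the clones and 5.45% in the controls (coefficient of variation). The log2 fold change was 3.52 (95% interval 3.30 to 3.75, limma adjusted p = 4.0e-08), an 11.5-fold higher mean, and 3.95% of tested genes had a higher one. A rise of at least 8-fold was called for 5.19% of tested genes. Per kb of exon it ranked above 93.6% to 94.2% of all genes in the clones and above 54.2% to 56.5% in the controls, which is near the middle of the table.

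Other genes of glutathione synthesis and use moved both ways. Of 34 tested, Gss included, 18 were higher, 10 lower and 6 did not pass (all tested genes: 35.2% higher, 38.3% lower). The median log2 fold change of the list was 0.49, beside -0.07 over all tested genes. Slc7a11, which encodes the cystine importer, measured 18305 ± 2352 scaled counts in the clones and 38.4 ± 10.1 in the controls. Cth, which makes cysteine from cystathionine, measured 7749 ± 294 in the clones and 819 ± 70.5 in the controls. Both supply the cysteine that enters glutathione. Cbs, of the same list and named after its values were seen, went the other way. It measured 45.8 ± 9.84 scaled counts in the clones and 656 ± 74.9 in the controls. Ggt1, which breaks down glutathione outside the cell, had 4 reads in all clones together and a mean of 198 scaled counts in the controls; it was picked after its values were seen, as the largest fall of the list.

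The enzyme before GSS in the pathway is a dimer whose subunit genes did not move together. Gclm, the modifier subunit, rose to 11508 ± 642 scaled counts in the clones, against 1945 ± 314 in the controls (limma adjusted p = 4.0e-07). Gclc, the catalytic subunit, had 1823 ± 63.2 in the clones and 2300 ± 317 in the controls, and its call as lower (log2 fold change -0.33, limma adjusted p = 0.0355) was lost in 7 of 17 alternative analyses, among them those without any 1 clone, control 1 or control 2 (-0.52 to -0.19 over all 17). Beside the mean of this pair, Gss per kb had a log2 ratio of 0.11, 0.32 and 0.32 in clones 5, 6 and 7, against -2.35, -2.08 and -2.03 in controls 1, 2 and 3. Gss thus stood below the pair in every control and slightly above it in every clone, a difference of 2.40 (exact two-sided permutation test p = 0.1, the smallest possible).

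**Figure D2:**
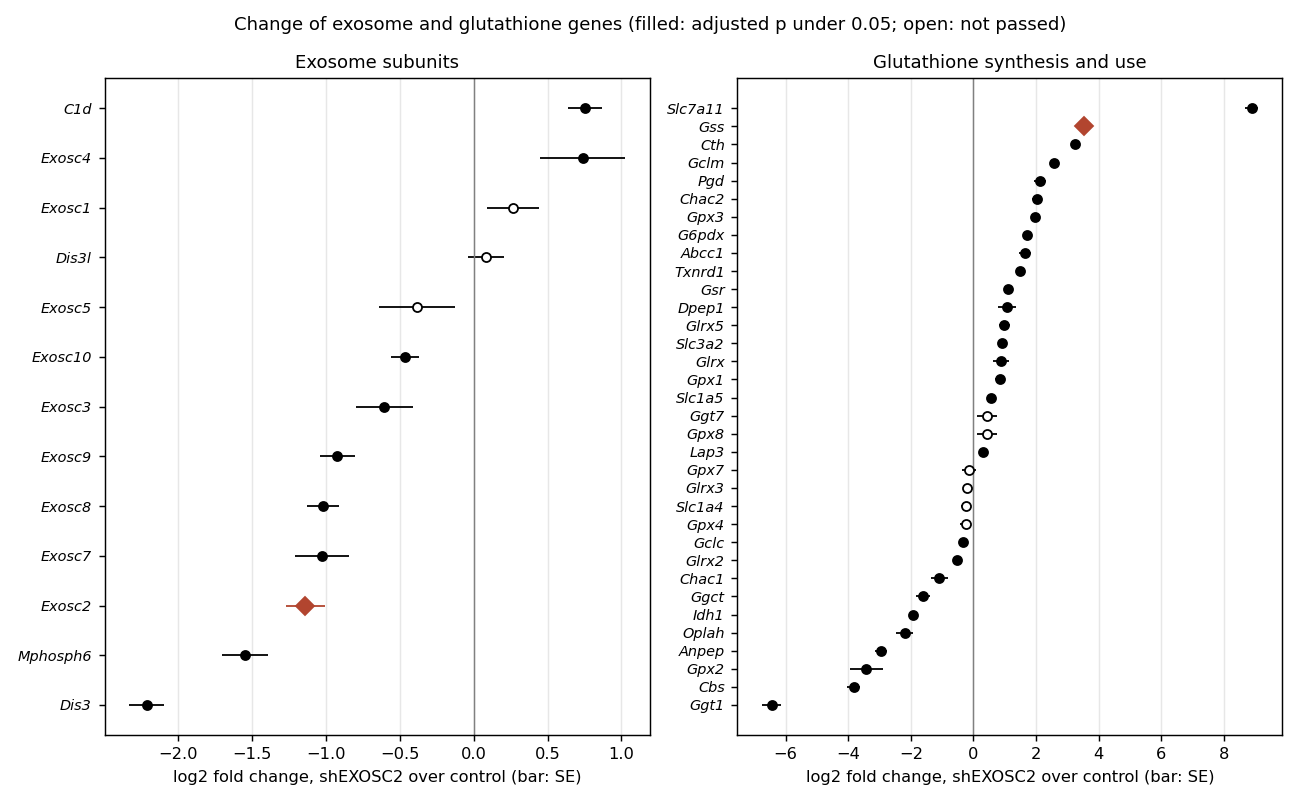
Log2 fold changes, clones over controls (horizontal axis, bars are SE), of 13 exosome genes and 34 glutathione genes, sorted by value; diamonds mark Exosc2 and Gss, filled symbols passed at an adjusted p under 0.05 and open symbols did not. Exosc2 (-1.14) lies among the lower exosome genes, and Gss (3.52) is second to Slc7a11 (8.88).

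Slc2a3 (ENSMUSG00000003153.10, chromosome 6, positions 122727809 to 122801640, minus strand) had the largest change of the 4. It measured 36.8, 36.0 and 19.4 scaled counts in clones 5, 6 and 7, against 43364, 39778 and 67744 in controls 1, 2 and 3. Control 3 stood above the other controls and clone 7 below the other clones, yet the lowest control was still 1081 times the highest clone. The log2 fold change was -10.64 (95% interval -11.27 to -10.02, limma adjusted p = 2.9e-08), and the mean in the clones was 0.0611% of the control mean. Only 12 of 15179 tested genes had a lower log2 fold change. The clones together held 93 reads of this gene (exact 95% Poisson interval 75.1 to 114, counting error only), against 150069 in the controls.

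Slc2a3 was the most abundant glucose transporter of its family in the controls and a trace in the clones. Per kb of exon it made up 0.222%, 0.174% and 0.115% of the summed level of 11 Slc2a genes in clones 5, 6 and 7, against 66.1%, 57.3% and 63.0% in controls 1, 2 and 3 (difference -62.0 percentage points, exact two-sided permutation test p = 0.1, the smallest possible). Slc2a1, which encodes the widely expressed transporter GLUT1 and was picked after its values were seen, held a mean of 86.8% in the clones and 35.8% in the controls. Its own level was nonetheless lower in the clones, at 7560 ± 893 scaled counts against 14006 ± 4145 in the controls (log2 fold change -0.85, limma adjusted p = 0.0043). The larger share of Slc2a1 in the clones thus came with a smaller family total: the summed level per kb was 2486 ± 312 in the clones and 11153 ± 3197 in the controls, 22.3% of the control mean. Slc2a6, also picked after its values were seen, rose to 651 ± 144 scaled counts in the clones, against 23.7 ± 9.02 in the controls.

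**Figure D3:**
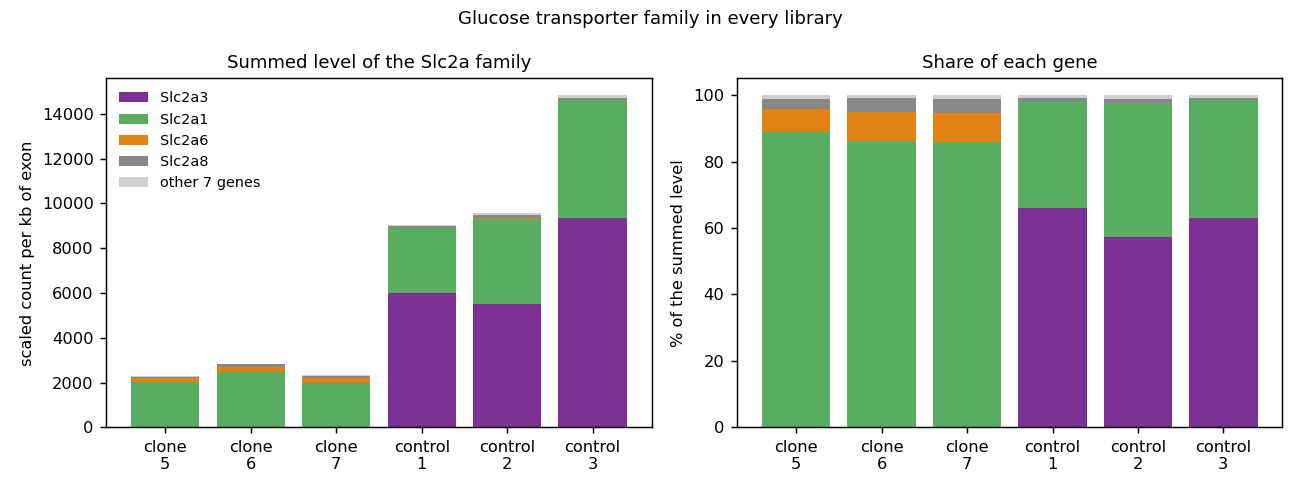
Levels of the Slc2a glucose transporter genes per kb of exon in each library, stacked (left) and as percent of their sum (right), with clones 5 to 7 left of controls 1 to 3. Slc2a3 fills 57.3% to 66.1% of the control bars and is too small to see in the clones, where Slc2a1 makes up most of a shorter bar.

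A wider list held sugar transporters of the Slc2a and Slc5a families, hexokinases and Txnip, a regulator of glucose uptake. Of its 16 tested genes, 7 were higher, 6 lower and 3 not past the threshold (all tested genes: 35.2% higher, 38.3% lower). The median change on the log2 scale was 0.10, a value that rests on single libraries: it was 0.0056 without control 2, 0.03 without clone 7 and 0.28 without control 3, and it was 0.43 under quantile normalization. Slc5a9, which encodes a sodium-coupled sugar transporter, rose to 491 ± 50.9 scaled counts in the clones, against 0.316 in the controls, where it had 1 read in all. Slc2a5, which encodes a fructose transporter, had 2 reads in all clones together and a mean of 143 ± 30.3 scaled counts in the controls. Hk1 and Hk2, hexokinase genes named after their values were seen, had log2 fold changes of 1.70 and 0.86, and both passed.

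The 3′ untranslated region of Slc2a3 holds a longer AU-rich motif, TATTTAT, that was not found in those of the other members, and is shown because the exosome takes part in the decay of mRNAs with such elements. In the longest annotated 3′ untranslated region of each gene, TATTTAT occurred at 2 places in 2122 bases for Slc2a3, and at none in 375, 779 and 415 bases for Zscan10, Exosc2 and Gss. The shorter pentamer ATTTA, which lies within it, occurred 4 times for Slc2a3, 1 time for Exosc2 and not in the other members. Of 15073 genes with such a region, 29.4% held TATTTAT. The median log2 fold change was 0.10 for 4128 tested genes with it and -0.11 for 9568 without it, given as a description. Both sites lie on the minus strand in GRCm38, at chr6:122729462-122729490 and chr6:122729429-122729457, and are printed 5′ to 3′ from the GENCODE transcript with the match in capitals.
Slc2a3 first site: aacttgagtttTATTTATtttatcttcag
Slc2a3 second site: aattgcataaaTATTTATttttttaattg

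Zscan10 (ENSMUSG00000023902.18, chromosome 17, positions 23600856 to 23611019, plus strand) fell to a few reads per library. It measured 7.96, 6.16 and 10.1 scaled counts in clones 5, 6 and 7, from 8, 6 and 11 reads, against 1528, 2113 and 1283 in controls 1, 2 and 3. The controls varied by 1.65 times between the lowest and the highest, while the lowest control was 126 times the highest clone. The log2 fold change was -7.49 (95% interval -8.08 to -6.89, limma adjusted p = 7.7e-08), and the mean in the clones was 0.493% of that in the controls. A total of 173 tested genes had a lower log2 fold change, and 1.6% of tested genes were called with a fall of at least 7 on the log2 scale. In these bulk libraries fewer cells with the transcript and less of it per cell cannot be told apart, here or for the other members.

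Genes that share the SCAN domain with Zscan10 moved both ways, in shares near those of all tested genes (35.2% higher and 38.3% lower). Of 31 tested, Zscan10 included, 12 were higher, 13 lower and 6 not past the threshold, and the median change on the log2 scale was -0.15 (-0.24 without control 3). Zscan18 fell along with Zscan10, to 3.21 ± 1.91 scaled counts in the clones, against 382 ± 40.6 in the controls. Peg3, an imprinted zinc finger gene, rose to 12931 ± 661 in the clones, against 3737 ± 889 in the controls.

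The genes of a list of pluripotency factors and markers were nearly all lower. Whether Zscan10 works beside each of them was not tested. Of 25 tested, 23 were lower and 2 higher (all tested genes: 38.3% lower, 35.2% higher). The median log2 fold change of the list was -5.62, beside -0.07 over all tested genes. Esrrb, a nuclear receptor gene of the naive state, measured 2.27 ± 0.432 scaled counts in the clones and 16546 ± 736 in the controls. Dppa5a measured 38.1 ± 3.69 in the clones and 13193 ± 1597 in the controls, and Zfp42 (REX1) had no read in any clone and 6281 ± 927 scaled counts in the controls. Pou5f1, which encodes OCT4, and Klf4 were higher in the clones; Pou5f1 measured 91114 ± 2227 there and 21045 ± 4721 in the controls. These lists were chosen with earlier results of these data known, so their direction is no independent evidence.

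The fall of Zscan10 and Slc2a3 went with a wider change in cell identity markers. Of 22 ESC markers, 21 were lower in the clones and 1 was higher (all tested genes: 38.3% lower, 35.2% higher). All 22 are among the 25 pluripotency genes above, so this count repeats much of that one. Zfp42, Dppa3 and Utf1 were at 0 reads in every clone. The summed level of the 22 was 94272 to 100706 scaled counts in the clones and 142820 to 158321 in the controls. Pou5f1 made up most of it in the clones. The ESC label thus does not match most of these markers in the clones. Sox2 and Fgf4, both lower, still had means of 2805 and 1663 scaled counts there. These markers too were chosen with earlier results of these data known, so they are no independent evidence. Of 19 tested fibroblast and feeder markers, 17 were higher and 2 lower, with summed levels of 77108 to 99692 in the clones and 48012 to 73236 in the controls, and none was at 0 reads in either group. Vim, Twist1 and Col6a2 had log2 fold changes of 2.77, 3.88 and 2.65, and the 2 lower ones, Fn1 and Thy1, had -1.06 and -0.93. Of 19 epithelial markers, 6 were higher, 11 lower and 2 did not pass, with summed levels of 40196 to 45255 in the clones and 35543 to 53935 in the controls. Ehf rose to 16997 ± 810 in the clones, against 1.69 ± 0.605 in the controls. Krt6a had no control read and Krt17 no clone read, and Cldn7 had 1 read in the clones and a mean of 907 in the controls. The part of other cell types in the values of the 4 members was not tested.

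Per kb of exon, Gss and Slc2a3 changed places at the ends of the order, while Exosc2 was second and above Zscan10 in all 6 libraries. In clones 5 and 6 it ran Gss, Exosc2, Slc2a3, Zscan10, and in clone 7 Zscan10 stood above Slc2a3; in every control it ran Slc2a3, Exosc2, Zscan10, Gss. The mean levels per kb were 1117 for Gss, 360 for Exosc2, 4.24 for Slc2a3 and 2.83 for Zscan10 in the clones, and 6942 for Slc2a3, 795 for Exosc2, 575 for Zscan10 and 96.9 for Gss in the controls. Slc2a3 and Zscan10 were not separated in the clones, where their values overlapped and their order differed between libraries. In the controls the ranges of Exosc2 and Zscan10 overlapped across libraries, although Exosc2 was the higher in each. Gss stood apart from its neighbour in the order in both groups.

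The genes with the pattern most like that of each member were found by the root-mean-square distance, over the 6 libraries, between log2(scaled count + 1) values centred on each gene's own mean, among genes with a mean of at least 50. For Exosc2 the nearest were Setd4, U2af1 and Impdh2, at distances of 0.05 each. For Gss they were Ehd2, AI506816 and Lrig1, at 0.10, 0.11 and 0.12. For Slc2a3 the nearest was Gldc, at 0.34. The next for Slc2a3 (Ap1m2 and Dmrt1) and all 3 for Zscan10 (Pla2g10, Wscd1 and Cabp7) had no read in any clone. They entered through the controls alone, and the added 1 sets their clone values, so their distances show no likeness. Gldc, which encodes a subunit of the glycine cleavage system, had 4 reads in all clones together and 4191 ± 151 scaled counts in the controls. It too passed the filter through the controls alone, and its clone values were near the added 1. Its distance therefore shows no likeness either.

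On the chromosome, Slc2a3 lies next to Nanog, a core pluripotency gene, whose end is 13.2 kb from that of Slc2a3. Nanog had 2 reads in all clones together and 9698 ± 366 scaled counts in the controls. The loss did not extend over all nearby genes: RP23-46L17.6, 9.53 kb beyond the other end of Slc2a3, rose to 70.2 ± 6.22 in the clones, against 25.4 ± 8.05 in the controls. RP23-46L17.4, a processed pseudogene inside the Slc2a3 span that shares no exon base with it, measured 12.0 ± 4.36 in the clones and 9.01 ± 1.43 in the controls and did not pass. Of the 6 nearest genes in the table (3 on each side), 5 were tested, with 3 lower, 1 higher and 1 not passing, where 38.3% of all tested genes were lower. Of the 3 lower genes Gm10420 and Gm26826, both near the filter, had the other sign under quantile normalization. The Gm10420 call was also lost in 4 of 16 alternative analyses (DESeq2 and without clone 5, clone 6 or control 2; log2 fold changes -1.25 to 0.83 over all 16). The Gm26826 call was lost in 5 of 16 (DESeq2 and without clone 5, clone 6, control 1 or control 3; -1.35 to 0.87).

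Around Gss, 4 of 5 tested neighbours were higher and none lower, beside 35.2% higher and 38.3% lower over all tested genes. The nearest, Acss2, which encodes an acetyl-CoA synthetase, measured 1065 ± 61.9 scaled counts in the clones and 453 ± 59.1 in the controls, a log2 fold change of 1.24 beside 3.52 for Gss. Ncoa6, Trpc4ap and Myh7b had log2 fold changes of 0.89, 0.94 and 0.81, and Ggt7, at 0.43, did not pass; the Myh7b call was lost in 4 of 17 alternative analyses, each without 1 library (clone 5, 6 or 7 or control 1; 0.47 to 1.21 over all 17). Acss2 and the antisense genes Gssos1 and Gssos2 share 395, 322 and 385 of the 5915 exon bases of Gss on the opposite strand. The labels do not say whether reads were counted by strand. In these shared bases, reads of Gss and of the other genes therefore cannot be told apart, which also limits the values of Acss2 and Gssos2. Gssos2 measured 6.22 ± 0.716 in the clones and 0.670 ± 1.16 in the controls, a small level beside that of Gss, and Gssos1 is not analysed here.

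Around Zscan10, 5 of 6 neighbours were lower and Zfp213 did not pass, where 38.3% of all tested genes were lower. Their log2 fold changes ran from -3.48 (Ccdc64b) to -0.29 (Zfp213), all smaller than the -7.49 of Zscan10. The farthest, Zfp40 (-3.23), lies 408 kb away. Ccdc64b was a low gene, with 17 reads in all clones together and a mean of 54.7 scaled counts in the controls. Its value ran from -4.21 to -2.04 over 16 alternative analyses. Mmp25 was low too, at means of 13.6 in the clones and 46.7 in the controls. Zfp13, the nearest at 1.37 kb, measured 162 ± 24.1 in the clones and 377 ± 144 in the controls. Around Exosc2, Hmcn2, Ass1 and Fubp3 on one side, 210, 150 and 53.2 kb away, were lower, at -1.91, -2.67 and -0.35. Abl1, 7.03 kb away on the other side, was higher at 0.55. The Fubp3 call was lost without clone 5 and without clone 7 (-0.53 to -0.28 over 17 alternatives), and those of Hmcn2 and, near Zscan10, Mmp25 under quantile normalization. The median over all tested genes of the chromosome was -0.05 for chromosome 2, 0.07 for chromosome 17 and 0.41 for chromosome 6.

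**Figure D4:**
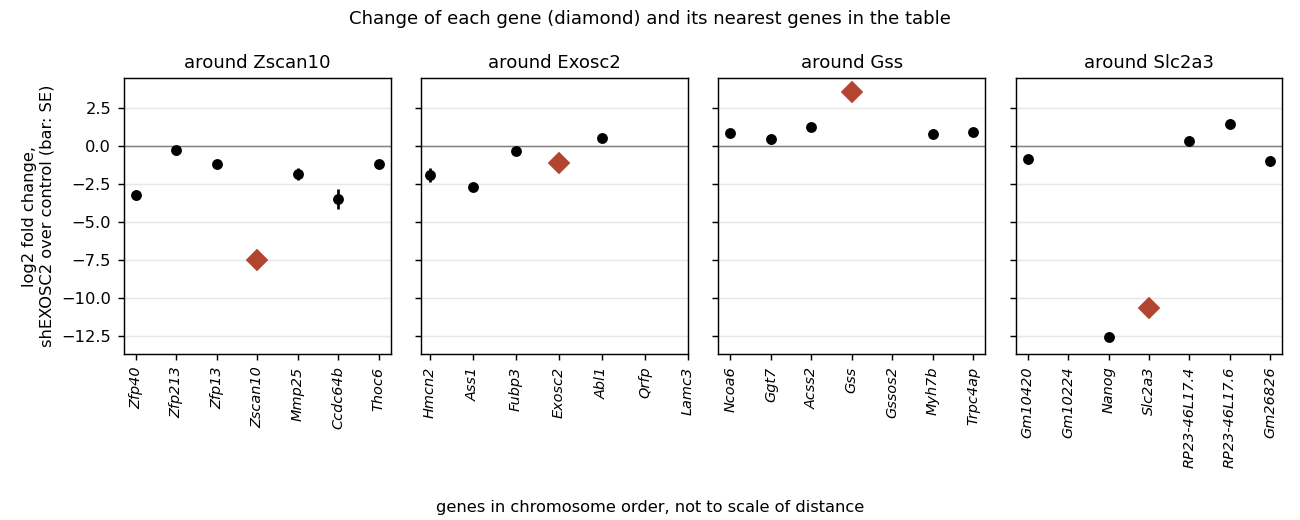
Log2 fold changes, clones over controls (vertical axis, bars are SE), of each member (diamond) and of the 3 nearest genes in the table on each side (circles), in chromosome order and not to scale; Qrfp, Lamc3, Gssos2 and Gm10224 were too low to test and have no point. Nanog lies beside Slc2a3 with a value below it, and the neighbours of Gss lie between 0.43 and 1.24.

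The start regions of Zscan10 and Gss, the members with the largest fall and the largest rise among the 3 for which a start region was at hand, are shown with the match to a motif in capitals. Each runs 5′ to 3′ on the strand of its gene from 250 bases before to 50 bases after the annotated start (RefSeq, GRCm38.p6), at chr17:23600576-23600875 on the plus strand and chr2:155592761-155593060 on the minus strand. Motifs searched on both strands were the octamer bound by OCT4 (ATGCAAAT), the core of the antioxidant response element (TGACNNNGC), the E-box (CACGTG) and the GC box (GGGCGG). They occurred in 1.74%, 12.4%, 7.15% and 35.7% of 32851 such regions. Gss held 1 GC box, beginning 13 bases after the start base, and the regions of Zscan10 and Exosc2 held none of the 4. A match, or the lack of one in this window, is a description of the sequence only.
Zscan10: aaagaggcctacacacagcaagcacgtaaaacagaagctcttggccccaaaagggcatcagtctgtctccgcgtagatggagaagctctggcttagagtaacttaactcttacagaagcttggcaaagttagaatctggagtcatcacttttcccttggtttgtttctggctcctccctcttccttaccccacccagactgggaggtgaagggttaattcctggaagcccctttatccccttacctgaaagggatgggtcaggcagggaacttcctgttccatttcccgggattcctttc
Gss: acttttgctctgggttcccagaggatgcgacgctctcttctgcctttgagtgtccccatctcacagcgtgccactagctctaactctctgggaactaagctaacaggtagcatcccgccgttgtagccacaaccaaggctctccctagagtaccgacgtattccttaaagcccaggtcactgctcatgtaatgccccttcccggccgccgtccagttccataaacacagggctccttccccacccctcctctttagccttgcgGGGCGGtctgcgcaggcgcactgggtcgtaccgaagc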

How the data were processed

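Poly(A) RNA of 6 libraries was sequenced after TruSeq Stranded mRNA preparation, per the labels' protocols. The deposited values are a signal, read counts per gene scaled by DESeq, per the file headers; the submitters' processing notes name STAR 2.5.0a, cutadapt 1.6, DESeq 1.22.1 and HTSeq 0.5.3 with mm10, without settings. All values were whole multiples of 1 step per library within 0.001 read (100% of values), which gave back the reads. Each gene had at least 15 reads in sum. Positions and exon lengths came from GENCODE M21 (GRCm38, the assembly of mm10), matched by identifier for 17860 of 17912 genes.

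The main test was limma 3.58.1 (eBayes with trend) on log2(scaled count + 1) where a gene averaged at least 10, with Benjamini-Hochberg adjustment over all 15179 tested genes. On this scale the fold of a low gene comes out too small. Ratios within a library were tested with an exact permutation test. Alternatives were other pseudocounts (0.5 and 5), filters (none, mean of at least 50), scalings and variance models, edgeR 4.0.16, DESeq2 1.42.0, chromosome centring and leaving out each library. Named genes are the 4 members, the 3 of each list with the smallest p and those moving against their list, the genes ranked beside each member, the 3 nearest on each side and the 3 most alike in pattern; others are said to be so where named, and not every gene of the rule is described. Members and lists were chosen with earlier results of these data known. Analyses used R 4.3.3, Python 3.11.15 and matplotlib 3.10.9. The promoter table held 3 of the 4 members.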

Additional observations from a re-analysis of the deposited data

How the results depend on the processing

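Each of the 4 members kept its direction and stayed past the threshold in all 17 alternative analyses. Leaving out 1 library, the log2 fold change ranged from -7.65 to -7.29 for Zscan10, from -1.25 to -1.08 for Exosc2, from 3.48 to 3.56 for Gss and from -10.80 to -10.35 for Slc2a3. The other alternatives gave -7.67 to -6.85 for Zscan10, -1.34 to -1.08 for Exosc2, 3.36 to 3.59 for Gss and -11.03 to -10.16 for Slc2a3, and the largest adjusted p in any alternative was 7.2e-04, for Exosc2. The number of genes called over the whole table ran from 9228 to 12553, against 11158 in the main analysis. Without division by gene length, the difference in the share of Slc2a3 was -76.9 percentage points in place of -62.0, since its annotated exons are longer than those of most of its family. With chromosome medians subtracted, 6 of 13 tested exosome genes were lower and 1 was higher, with a median of -0.32. In that setting 5566 of all 15179 tested genes were lower and 5467 higher, with a median of -0.003. With no filter on low values the median of the glucose entry list was -0.49, beside -0.14 over all genes. The 4 genes added to the list were all near 0 in the clones. They were low in the controls too, with means of 8.06 to 10.3 scaled counts. No paired analysis was possible because controls are numbered 1 to 3 and clones 5 to 7 and share no number. Depth limits Zscan10 and Slc2a3 in the clones, where 25 and 93 reads in all carry the values.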
